A study of Mus musculus with 4 samples.

Results

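The imprinted growth genes of perinatal brain endothelium were examined as 10 named genes, Igf2, H19, Igf2r, Grb10, Cdkn1c, Plagl1, Peg3, Ndn, Dlk1 and Meg3. They were chosen by name, as imprinted genes known for their part in growth, with earlier results of these data known. All 10 were found among the 21578 genes with reads in the deposited tables. All 10 also passed the filter on low counts that left 15909 genes for testing. RNA came from brain endothelial cells sorted from C57BL/6 mice at postnatal day 0 (P0), with 2 libraries of Pd1fl/fl mice and 2 of Pd1cKO-Tie2 mice. Both genotypes carry the floxed allele of Pd1, the gene for the inhibitory receptor PD-1 (symbol Pdcd1). Pd1cKO-Tie2 mice also carry Tie2-Cre, whose driver is active in the endothelial lineage and, as the study's text grants, in blood-derived cells as well. The methods describe cortical cells freed with papain, cleared of red cells and sorted after labelling of CD31 and CD45. Nothing says whether a library came from 1 animal or several, so p-values here measure the spread between these libraries, which may be technical. The second Pd1cKO-Tie2 column bears a number that no label has and is known by its genotype only.

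Genomic imprinting silences an autosomal gene on the copy inherited from the mother or on the copy from the father, so that most cells read a single parental copy. Imprinted genes sit in clusters in which a long non-coding RNA and a differentially methylated control region often set the state of their neighbours. Many genes read from the father's copy promote fetal and perinatal growth, and many read from the mother's copy restrain it. Igf2, the growth factor of this group, is made in quantity by fetal blood vessels and mesenchyme, and several of the other genes act on its signal or on the cell cycle. The counts do not separate the parental copies, so imprinting itself was not measured.

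Several of these genes are also hosts of microRNAs, and their sequences show that H19, Igf2 and Meg3 transcripts carry short RNAs that gene counts cannot see. The mature sequences below are those of RefSeq on GRCm38.p6, read 5′ to 3′, with the seed (bases 2 to 8, which pair with the target) in capitals. The pair from the hairpin within an H19 exon lies on chromosome 7, minus strand, from 142577112 to 142577133 for the 5p arm and from 142577078 to 142577099 for the 3p arm.
mmu-miR-675-5p: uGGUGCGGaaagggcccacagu
mmu-miR-675-3p: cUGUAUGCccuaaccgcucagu
The pair from an Igf2 intron lies on the same strand of chromosome 7, from 142654968 to 142654989 for the 5p arm and from 142654932 to 142654952 for the 3p arm.
mmu-miR-483-5p: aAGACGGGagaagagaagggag
mmu-miR-483-3p: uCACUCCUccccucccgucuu
Within a Meg3 exon, on the plus strand of chromosome 12, lie the arms of miR-770, from 109563710 to 109563731 for the 5p arm and from 109563744 to 109563765 for the 3p arm.
mmu-miR-770-5p: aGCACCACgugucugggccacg
mmu-miR-770-3p: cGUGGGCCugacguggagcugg
A Meg3 exon also holds mmu-miR-1906, from 109544588 to 109544609, whose sequence is not printed here. No seed is shared between these hosts. Mature microRNAs were not measured here, and the values that follow are those of the host genes.

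The depth was 13715837 to 14359990 counts in the Pd1fl/fl libraries and 14157027 to 24147311 in the Pd1cKO-Tie2 libraries, so that the limit of 3 counts that a count of 0 allows stood at 0.124 to 0.219 CPM (read counts scaled to library size, with the trimmed mean of M values, TMM). This limit and the binomial intervals below cover counting error only. Pdcd1 had 32 counts in Pd1fl/fl library 1 and 0 in the other 3 libraries, so it was too low to test and, of the Pd1fl/fl libraries, only the first was told apart from the Pd1cKO-Tie2 libraries by it. Endothelial markers were abundant throughout, with 16 markers summing to 17850 and 16931 CPM in Pd1fl/fl against 21626 and 22521 CPM in Pd1cKO-Tie2 libraries. All 16 were higher in both Pd1cKO-Tie2 libraries than in both Pd1fl/fl libraries. Of 11 microglial and macrophage markers, 9 were lower in both, and their sum was 2071 and 2554 CPM in Pd1fl/fl against 800 and 1743 CPM in Pd1cKO-Tie2 libraries. Pd1fl/fl library 1 stood apart by 911 CPM of 8 neutrophil markers, with 1.32 to 55.4 CPM in the others. Radial glial and astrocyte markers were lower too, with sums of 1257 and 1148 CPM in Pd1fl/fl against 983 and 959 CPM in Pd1cKO-Tie2 libraries. Of these 10 markers 6 were lower and 1 higher in both Pd1cKO-Tie2 libraries, where 18.1% and 17.8% of all tested genes were. The fitted difference was below 0 for 7 and above 0 for 3. The 2-fold criterion used below was met by 2, and by 4.02% of all tested genes. The median log2 difference was -0.83, against -0.88 for the microglial markers. What part these shifts have in the differences below was not tested. Mural markers summed to 5781 and 3771 CPM in Pd1fl/fl, with both Pd1cKO-Tie2 libraries between them at 3882 and 3852 CPM. Their median log2 difference was -0.24, and of 10 tested 3 were lower and 1 higher in both Pd1cKO-Tie2 libraries. Neuronal markers summed to 966 to 1393 CPM. Erythroid markers summed to 556 to 1069 CPM, oligodendrocyte lineage to 97.4 to 197 CPM, fibroblast to 60.0 to 148 CPM and choroid plexus to 6.89 to 16.0 CPM. In bulk samples, fewer cells of a type and less RNA per cell cannot be told apart.

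The 10 genes spanned a wide range of levels, which were compared per kilobase (kb) of exon as the mean and SD over the 4 libraries. Grb10, which encodes an adaptor protein that binds activated insulin and IGF1 receptors and damps their signal, was the highest at 26.3 ± 2.48 CPM per kb and stood above 87.6% of tested genes. Igf2 followed at 17.3 ± 3.53 CPM per kb, above 82.0% of tested genes. Neither the ranges of Grb10 and Igf2 nor those of Igf2 and the next gene, H19, overlapped. H19, Plagl1, Ndn and Igf2r formed a group whose neighbours overlapped, at 7.50 ± 3.84, 7.27 ± 1.60, 6.65 ± 0.596 and 6.21 ± 1.36 CPM per kb. Below a gap came Peg3 at 2.79 ± 1.19 and Cdkn1c at 1.09 ± 0.371 CPM per kb, whose ranges overlapped. Meg3 at 0.417 ± 0.187 and Dlk1 at 0.179 ± 0.0571 CPM per kb were the lowest, each overlapping the gene before it, above 8.44% and 1.77% of tested genes. Meg3 has a union exon length of 18089 bases, against 2039 for Cdkn1c, so its order by CPM is higher than by CPM per kb.

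**Figure D1:**
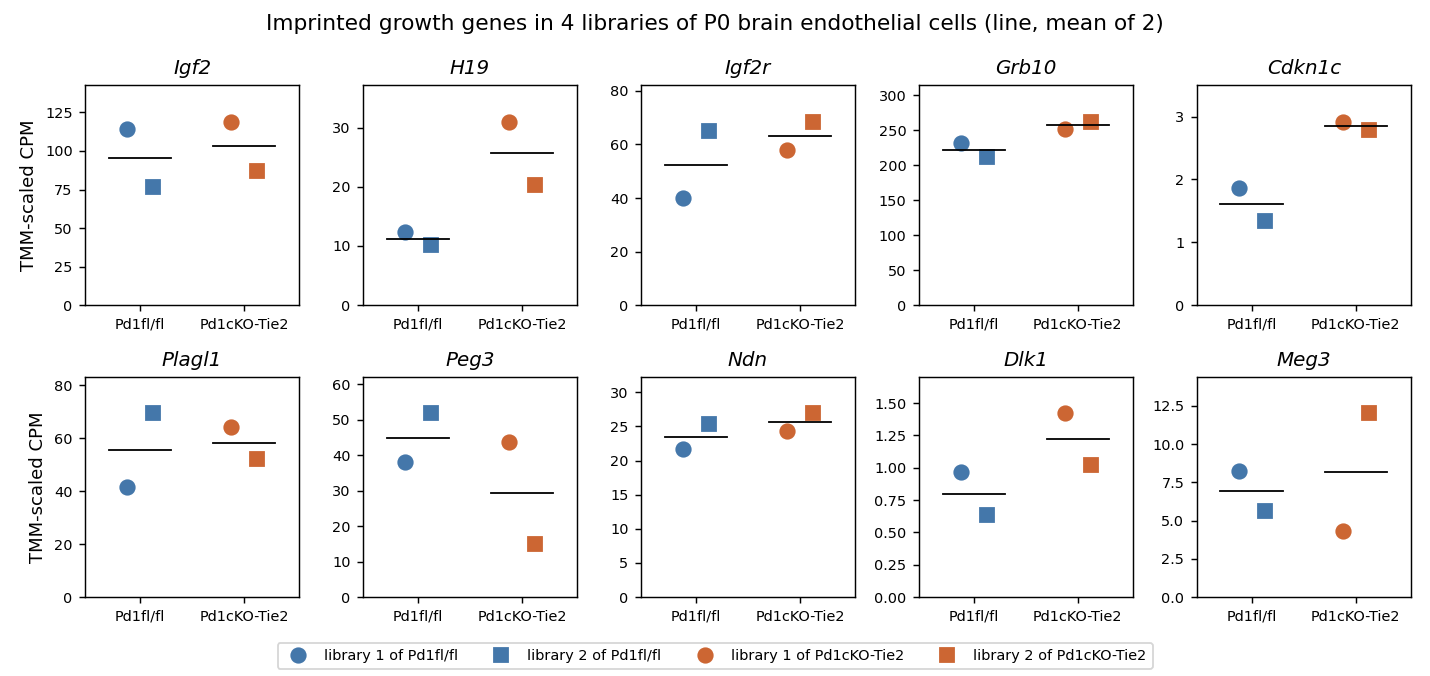
Level of each imprinted growth gene in each library, in TMM-scaled CPM on a linear axis that starts at 0. Blue symbols are Pd1fl/fl and orange symbols Pd1cKO-Tie2 libraries, circles library 1 and squares library 2, and the line is the mean of 2 libraries. Both Pd1cKO-Tie2 libraries lie above both Pd1fl/fl libraries for H19, Grb10, Cdkn1c and Dlk1, and the genotypes overlap for the other 6 genes.

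The comparison of Pd1cKO-Tie2 with Pd1fl/fl asked which transcripts of endothelial cells differ when Pd1 is deleted. A gene was called changed by the study's own criterion, a difference of at least 2-fold with p of 0.05 or less, here in edgeR's quasi-likelihood F test. Among the imprinted growth genes 1 of 10, H19, was called higher and 0 were called lower. Over all tested genes 4.02% were called, 1.41% higher and 2.61% lower, so that a single call among 10 genes is not a result about the group. No gene reached an adjusted p under 0.05 in edgeR, and 6.39% of genes had an unadjusted p under 0.05, H19 alone among the 10. DESeq2 gave 117 genes with an adjusted p under 0.05, 0.744% of those with an adjusted p, and none of the 10 was among them.

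The fitted difference was above 0 for 9 of the 10 genes, with Peg3 the exception, and its median was 0.22 on the log2 scale against -0.00 over all tested genes. Set against the summed endothelial markers of the same library, the sign held for H19, Cdkn1c, Dlk1 and Peg3 and turned below 0 for Igf2, Igf2r, Grb10, Plagl1, Ndn and Meg3. In CPM, both Pd1cKO-Tie2 libraries exceeded both of Pd1fl/fl for 4 genes and fell short of them for 0. Of all tested genes 17.8% lay above and 18.1% below, 35.8% in all. Set against the endothelial markers, H19 and Cdkn1c lay above without overlap, Peg3, Grb10 and Ndn lay below, and Dlk1 and the rest overlapped. The share of all tested genes on that scale was not computed.

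**Figure D2:**
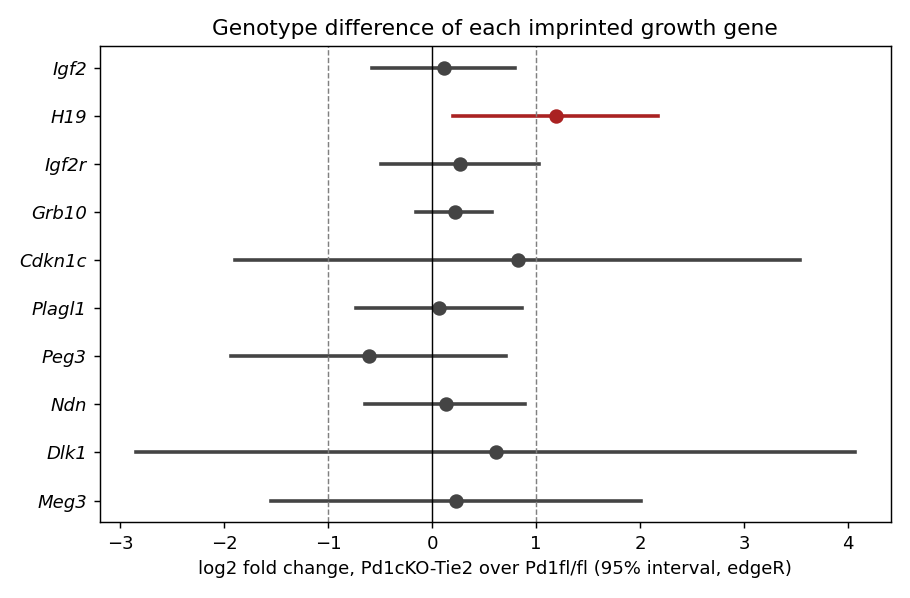
Fitted log2 difference of Pd1cKO-Tie2 over Pd1fl/fl libraries for each imprinted growth gene, with its 95% interval from edgeR. Dashed lines mark a 2-fold difference. The interval of H19 (red) runs from 0.20 to 2.17, and the other 9 intervals include 0.

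Igf2 (ENSMUSG00000048583; GRCm38 chromosome 7, 142650766 to 142666816, minus strand) encodes insulin-like growth factor 2, a paternally expressed growth factor. It was counted at 1642 and 1092 reads in Pd1fl/fl against 2838 and 1194 reads in Pd1cKO-Tie2 libraries, which is 114 and 76.8 CPM against 119 and 87.3 CPM. Library 1 was the higher in each genotype, and the genotypes overlapped. The means were 95.2 ± 26.1 and 103 ± 22.1 CPM (SD, n = 2 libraries each). The fitted log2 difference was 0.11 (SE 0.28, 95% interval -0.58 to 0.80, edgeR adjusted p = 1.00). Of the Igf2 exon bases, 62.8% are shared on the same strand with the read-through gene Gm49394, for which no count is listed. The split of reads between these genes is uncertain, and with it the Igf2 level and any share of reads that includes Igf2.

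H19 (ENSMUSG00000000031; chromosome 7, 142575529 to 142578143, minus strand), a maternally expressed long non-coding RNA known to restrain growth, lies 72.6 kb from Igf2 and shares enhancers with it. It was counted at 178 and 145 reads in Pd1fl/fl against 743 and 277 reads in Pd1cKO-Tie2 libraries. In CPM this was 12.3 and 10.2 against 31.0 and 20.3. Both Pd1cKO-Tie2 libraries were above both Pd1fl/fl libraries, and the higher was 1.53 times the lower within Pd1cKO-Tie2. The mean rose from 11.3 ± 1.50 to 25.6 ± 7.62 CPM, a fitted 2.28-fold difference (log2 1.19, SE 0.40, 95% interval 0.20 to 2.17). Its p was 0.0259 in edgeR's quasi-likelihood F test, with an adjusted p of 0.735 over all tested genes and 0.490 in DESeq2, so it failed the correction, and it ranked 557 among tested genes by p. The call was lost without Pd1fl/fl library 2 (log2 1.06, unadjusted p of 0.0866, edgeR) and without Pd1cKO-Tie2 library 1 (log2 0.86, unadjusted p of 0.150, edgeR). It was kept at log2 1.34 without Pd1fl/fl library 1, the library with neutrophil transcripts (edgeR adjusted p = 0.837).

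Marker levels were set beside H19, and they were higher, lower or overlapping in Pd1cKO-Tie2 libraries depending on the cell type. Endothelial markers were higher in both Pd1cKO-Tie2 libraries, and per 1000 CPM of these markers H19 stood at 0.690 and 0.602 CPM in Pd1fl/fl against 1.44 and 0.899 CPM in Pd1cKO-Tie2 libraries. The genotypes again did not overlap, and the log2 difference was 0.82 in place of 1.19. Fibroblast markers overlapped between the genotypes, their sum being 148 and 60.0 CPM in Pd1fl/fl against 103 and 108 CPM in Pd1cKO-Tie2 libraries. Of 6 tested, 3 had a fitted difference above 0 and 3 below, with a median of -0.01 on the log2 scale. Col3a1 was at 43.0 and 12.6 against 56.9 and 41.0 CPM, and Col1a2 at 45.6 and 24.0 against 13.2 and 37.6 CPM. Col1a1 was at 10.5 CPM in Pd1fl/fl library 1 and 0 in the others. Microglial and radial glial markers were lower in both Pd1cKO-Tie2 libraries by their sums. The part of fibroblast, microglial, radial glial or mural RNA in the result was not tested.

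The H19 and Igf2 pair gives a ratio within each library that no scaling changes. H19 made up 9.78% of the reads of the pair in Pd1fl/fl library 1 (95% Wilson interval 8.50 to 11.23, 1820 reads) and 11.7% in library 2 (10.05 to 13.63, 1237 reads). In Pd1cKO-Tie2 it made up 20.7% in library 1 (19.45 to 22.11, 3581 reads) and 18.8% in library 2 (16.91 to 20.91, 1471 reads). The genotypes did not overlap, and the counting intervals did not either. The ratio of H19 to Igf2 was 2.05-fold higher in Pd1cKO-Tie2 libraries (log2 difference 1.04, within-genotype SD 0.21 and 0.12). An exact two-sided permutation test gave p = 0.333, the smallest that 2 libraries against 2 allow, so this design cannot pass a threshold of 0.05 for a single ratio. The ratio shares its H19 counts with the comparison above and is not independent of it.

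**Figure D3:**
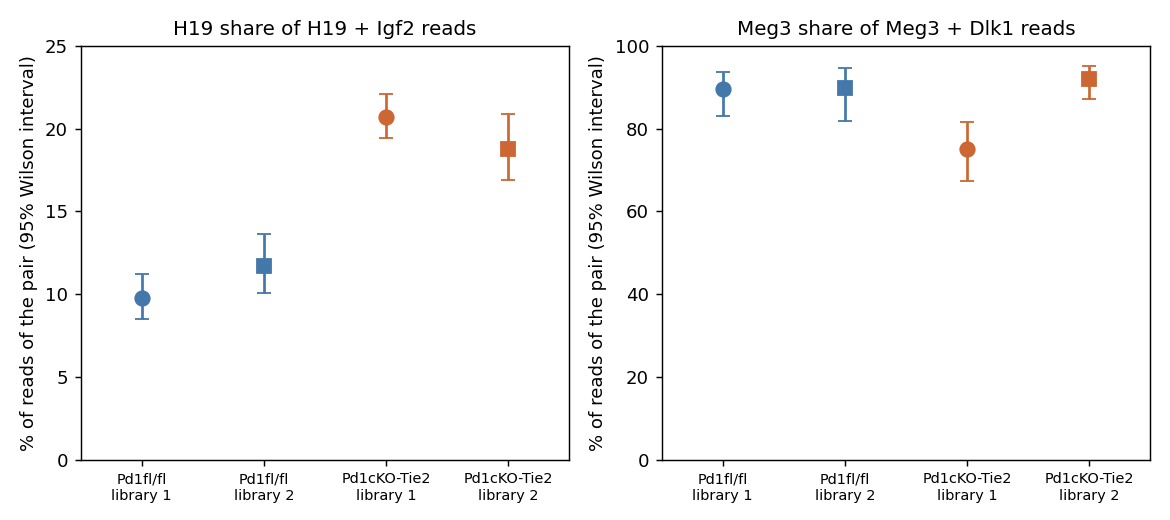
Share of the reads of 2 neighbouring imprinted genes taken by the non-coding gene of the pair, per library, with 95% Wilson intervals that cover counting error only. H19 takes 9.78% and 11.7% in Pd1fl/fl (blue) against 20.7% and 18.8% in Pd1cKO-Tie2 libraries (orange), and Meg3 takes 75.2% to 92.1% with overlapping genotypes.

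Igf2r (ENSMUSG00000023830; chromosome 17, 12682406 to 12769664, minus strand) encodes the receptor that takes up IGF2 and sends it to the lysosome, and it is maternally expressed in most mouse tissues. Its levels were 40.1 and 64.9 CPM in Pd1fl/fl and 57.9 and 68.5 CPM in Pd1cKO-Tie2 libraries. Pd1fl/fl library 1 was the lowest and the genotypes overlapped, with a fitted log2 difference of 0.27 (SE 0.31, edgeR adjusted p = 1.00). Airn, the paternally expressed antisense RNA that silences the paternal Igf2r copy, was read at 0.392 and 0.235 counts per Igf2r count in Pd1fl/fl against 0.226 and 0.380 in Pd1cKO-Tie2 libraries. These ratios overlapped.

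Grb10 (ENSMUSG00000020176; chromosome 11, 11930508 to 12038683, minus strand) was the most deeply read of the 10, with 3332 and 3009 counts in Pd1fl/fl against 6030 and 3581 counts in Pd1cKO-Tie2 libraries. In CPM it was 231 and 211 against 252 and 262. All 4 libraries lay close together, with those of Pd1cKO-Tie2 above. The fitted log2 difference was 0.22 (SE 0.15, 95% interval -0.15 to 0.58, edgeR adjusted p = 0.956), an interval that leaves out a 2-fold difference in either direction. Per 1000 CPM of endothelial markers the order turned, with 12.9 and 12.5 CPM in Pd1fl/fl and 11.6 CPM in each Pd1cKO-Tie2 library.

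Cdkn1c (ENSMUSG00000037664; chromosome 7, 143458339 to 143461050, minus strand), which lies 792 kb from Igf2, encodes p57, an inhibitor of cyclin-dependent kinases that is maternally expressed. Its counts were 27 and 19 in Pd1fl/fl against 70 and 38 in Pd1cKO-Tie2 libraries, or 1.87 and 1.34 against 2.92 and 2.78 CPM. The genotypes did not overlap, but at these counts the interval was wide (log2 0.83, SE 1.10, edgeR adjusted p = 1.00), and a difference of this size was not detectable. Of its exon bases 30.7% overlap the antisense gene Gm44732, and whether the counting used strand is not given in the sources used here. Kcnq1ot1, the paternally expressed non-coding RNA of this cluster, has a union exon length of 93092 bases against 2039 for Cdkn1c. Per kb its mean was the lower, at 0.494 ± 0.182 against 1.09 ± 0.371 CPM, with overlapping ranges. In raw counts it had 26.1 and 34.4 counts per Cdkn1c count in Pd1fl/fl against 22.3 and 8.66 in Pd1cKO-Tie2 libraries. These ratios did not overlap (log2 difference -1.11, exact permutation p = 0.333, the smallest possible). Kcnq1ot1 itself overlapped, at 48.8 and 46.0 CPM in Pd1fl/fl and 65.2 and 24.1 CPM in Pd1cKO-Tie2 libraries.

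Plagl1 (ENSMUSG00000019817; chromosome 10, 13060504 to 13131694, plus strand) encodes a paternally expressed zinc finger transcription factor that regulates other imprinted genes. It stood at 41.5 and 69.4 CPM in Pd1fl/fl and 64.2 and 52.2 CPM in Pd1cKO-Tie2 libraries, with both Pd1cKO-Tie2 values between those of Pd1fl/fl (fitted log2 difference 0.07, edgeR adjusted p = 1.00). The factor's GC-rich motif GGGGGCCCC, searched on both strands, was found in 1 of the 13 promoter windows that RefSeq gives for 8 of the 10 genes, each reaching from 250 bases before to 50 bases after a start. This was the window of Peg3, and 0.405% of 32851 windows of all genes held the motif. A match is a description of the letters and says nothing about binding. H19 and Cdkn1c had no window.

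Peg3 (ENSMUSG00000002265; chromosome 7, 6703892 to 6730431, minus strand), a paternally expressed zinc finger gene known for its part in placental and fetal growth and in maternal behaviour, had the widest spread. Its levels were 38.2 and 51.8 CPM in Pd1fl/fl and 43.8 and 14.9 CPM in Pd1cKO-Tie2 libraries. Pd1cKO-Tie2 library 2 alone was low, while library 1 lay between the Pd1fl/fl values, a 2.93-fold gap within the genotype. The fitted log2 difference was -0.61 (SE 0.53, edgeR adjusted p = 0.998). It rested on the low library, being -0.04 without it and -1.58 without Pd1cKO-Tie2 library 1, where it met the criterion (edgeR adjusted p = 0.909). Usp29, which starts from the same control region on the opposite strand, was read at 4.64 and 18.5 CPM in Pd1fl/fl and at 9.98 and 6.58 CPM in Pd1cKO-Tie2 libraries and overlapped too.

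Ndn (ENSMUSG00000033585; chromosome 7, 62346569 to 62350262, plus strand), a gene of a single exon block in the Prader-Willi cluster, encodes necdin, a paternally expressed growth suppressor of neurons and other cells. Its levels were close in all libraries, at 21.7 and 25.3 CPM in Pd1fl/fl and 24.4 and 26.9 CPM in Pd1cKO-Tie2 libraries, and overlapped (fitted log2 difference 0.13, edgeR adjusted p = 1.00). Its neighbour and relative Magel2, not one of the 10, had 20 and 47 counts in Pd1fl/fl against 0 in both Pd1cKO-Tie2 libraries, so that the Magel2 share of their summed reads was 6.01% and 11.5% in Pd1fl/fl, and 0 of 584 and of 368 reads in Pd1cKO-Tie2 libraries, which allows up to 0.514% and 0.815%.

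Dlk1 (ENSMUSG00000040856; chromosome 12, 109452823 to 109463336, plus strand) encodes a membrane protein related to Notch ligands that is paternally expressed, and Meg3 (ENSMUSG00000021268; 109541001 to 109571726, plus strand) is the maternally expressed non-coding RNA 77.7 kb away. Dlk1 was close to the limit of detection, with 14 and 9 counts in Pd1fl/fl against 34 and 14 counts in Pd1cKO-Tie2 libraries. This was 0.969 and 0.633 against 1.42 and 1.02 CPM, without overlap and with a wide error (log2 0.61, SE 1.40, edgeR adjusted p = 1.00). Meg3 had 119 and 80 counts in Pd1fl/fl against 103 and 164 counts in Pd1cKO-Tie2 libraries. The lowest and the highest Meg3 level were those of the Pd1cKO-Tie2 libraries, 4.30 CPM and 2.79 times as much, with 8.23 and 5.62 CPM in Pd1fl/fl between them (log2 0.23, SE 0.72, edgeR adjusted p = 1.00). Meg3 took 89.5% and 89.9% of the reads of the pair in Pd1fl/fl against 75.2% and 92.1% in Pd1cKO-Tie2 libraries, so the ratio overlapped (exact permutation p = 1.00). Of the Meg3 exon bases, 6.79% overlap Gm26906 on the opposite strand.

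The median fold between the libraries of a genotype was 1.41 for the 10 genes in Pd1fl/fl and 1.29 in Pd1cKO-Tie2, against 1.39 and 1.37 over all tested genes. The widest gaps in Pd1cKO-Tie2 were those of Peg3 (2.93-fold), Meg3 (2.79-fold) and H19 (1.53-fold), and in Pd1fl/fl those of Plagl1 (1.67-fold) and Igf2r (1.62-fold).

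**Figure D4:**
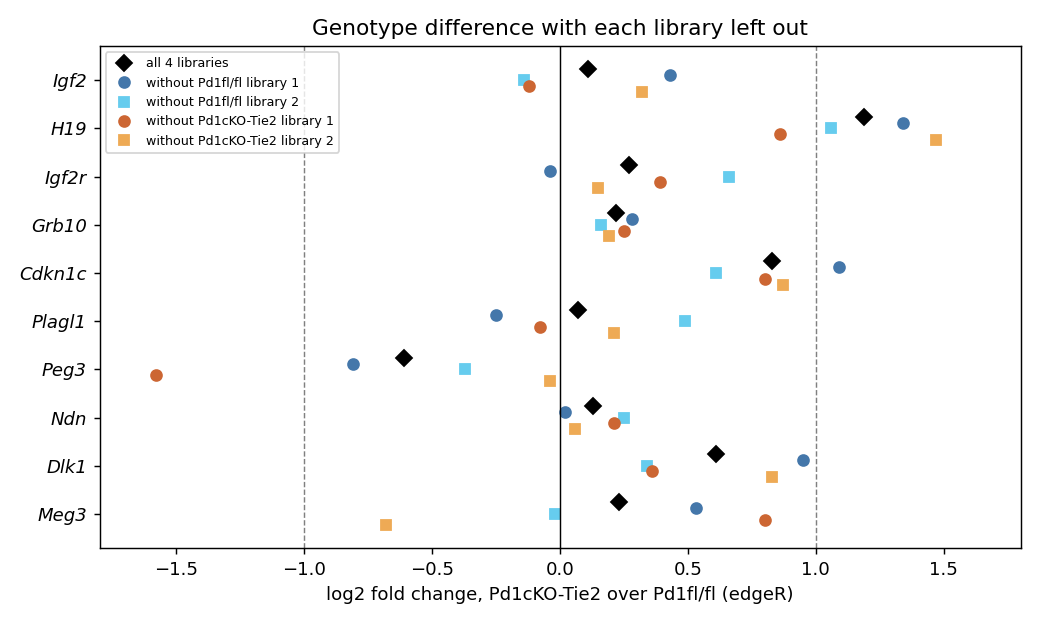
Fitted log2 difference of each imprinted growth gene with all 4 libraries (black) and with each library left out in turn, where the lone library of a genotype is taken to vary like the other genotype. H19 stays between 0.86 and 1.47, while Igf2, Igf2r, Plagl1 and Meg3 fall on both sides of 0.

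Genes outside this group that are described as imprinted in mouse tissues were surveyed from a list of 58. Of these, 46 had reads and 43 were tested, and whether they are imprinted in brain endothelium was not measured. Magel2 was the only call, with 0 called higher and 1 lower, and the median log2 difference was -0.08. Magel2 is a protein of the MAGE family that acts in protein recycling in the hypothalamus. Its mean in Pd1fl/fl libraries was 13.6 times the limit of 3 counts per library in Pd1cKO-Tie2, or 8.03 times with the lower library alone. These ratios leave out the spread between libraries. The fitted log2 difference of Magel2 had a 95% interval of -14.02 to -2.55 (edgeR adjusted p = 0.735). Its unadjusted p of 0.0143 in edgeR went to 0.174 without Pd1fl/fl library 2, to 0.0656 without Pd1cKO-Tie2 library 1 and to 0.0531 without Pd1cKO-Tie2 library 2, and the call was lost in each. The genotypes did not overlap for 9 genes higher and 8 genes lower in Pd1cKO-Tie2 out of 43, which is near the 17.8% higher and 18.1% lower of all tested genes. The highest per length were Cd81, a tetraspanin of the cell surface, and Nnat, a small proteolipid, at 197 and 187 CPM per kb. Nap1l4, a histone chaperone, followed at 45.8, Ddc, the decarboxylase of dopamine and serotonin synthesis, at 38.4, and Phactr2, a phosphatase and actin regulator, at 36.0 CPM per kb. Ddc stood at 142 and 153 CPM in Pd1fl/fl and 170 and 221 CPM in Pd1cKO-Tie2 libraries (edgeR adjusted p = 0.859), and none of the other 4 had an unadjusted p under 0.05.

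The genes of the insulin-like growth factor system form the setting in which IGF2 acts. Of a list of 27 that includes Igf2 and Igf2r, 22 had reads and 20 were tested, and 0 were called in edgeR. A single gene, Igfbp4, had an unadjusted p under 0.05 in edgeR. In DESeq2 the unadjusted p was 0.00734 for Igfbp4, 0.0405 for Igfbp7 and 0.0478 for Igf1r, none of them called. DESeq2 called 1, Irs4, which had 105 counts in Pd1cKO-Tie2 library 1 and 0 elsewhere. The median log2 difference was 0.16, and the genotypes did not overlap for 7 of the 20 genes higher and 2 lower in Pd1cKO-Tie2, where 17.8% and 18.1% of all tested genes did so. Igfbp4, a binding protein that holds IGFs back from their receptor, was at 316 and 218 CPM in Pd1fl/fl and 472 and 346 CPM in Pd1cKO-Tie2 libraries (log2 0.62, SE 0.25, edgeR adjusted p = 0.767). This is under 2-fold and was not called. Igfbp7, a secreted protein abundant in endothelium, was the highest of the list per length at 201 CPM per kb and stood at 223 and 201 CPM in Pd1fl/fl against 262 and 287 CPM in Pd1cKO-Tie2 libraries (edgeR adjusted p = 0.796). Igfbp3, the main carrier of IGFs in blood, stood at 141 and 181 against 186 and 247 CPM. Htra1, a secreted protease that cleaves IGF binding proteins, stood at 116 and 87.6 against 151 and 122 CPM. M6pr, the small mannose 6-phosphate receptor that shares the sorting role of Igf2r, overlapped at 287 and 297 against 244 and 321 CPM. The genes of this list that lay above did so beside endothelial markers that were higher by a median of 0.32 on the log2 scale, and the part of these in the result was not tested.

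Close relatives of the members that are not themselves members were read from a list of 11, with 10 tested. Magel2 was again the only call, and the median log2 difference was 0.01. Maged1, a MAGE relative of Ndn, was the highest per length at 112 CPM per kb and nearly level, at 494 and 474 CPM in Pd1fl/fl and 504 and 478 CPM in Pd1cKO-Tie2 libraries. Of the relatives of Cdkn1c, Cdkn1a (p21) was at 328 and 350 against 335 and 348 CPM, with a 95% interval of -0.33 to 0.34 for the log2 difference. Cdkn1b (p27) was at 26.1 and 56.9 against 56.1 and 20.3 CPM and overlapped. Both stood higher than Cdkn1c per length, at 95.8 and 8.75 CPM per kb against 1.09. Maged2 was at 61.8 and 56.4 against 72.0 and 81.3 CPM (edgeR adjusted p = 0.925). Grb14, the relative of Grb10 that also binds the insulin receptor, overlapped at 92.4 and 55.4 against 82.7 and 85.4 CPM.

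**Figure D5:**
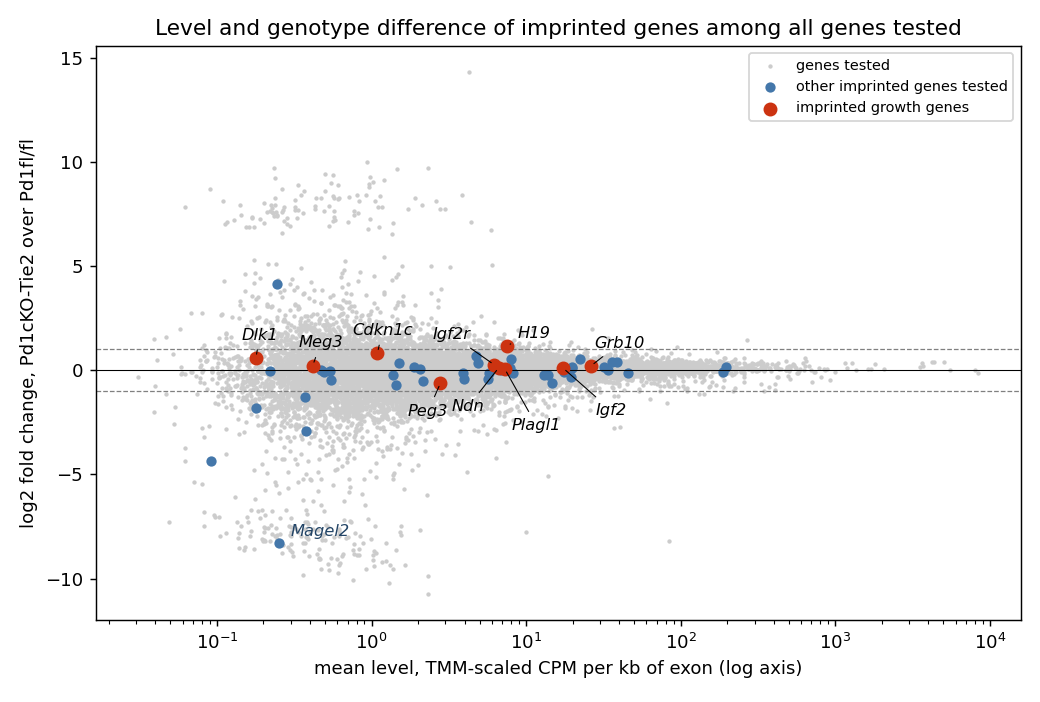
Fitted log2 difference of Pd1cKO-Tie2 over Pd1fl/fl libraries against mean level in CPM per kb of exon (log axis) for the 15909 tested genes (grey), the other imprinted genes tested (blue) and the 10 imprinted growth genes (red), with dashed lines at a 2-fold difference. The growth genes range from 0.179 (Dlk1) to 26.3 CPM per kb (Grb10), H19 alone lies beyond a 2-fold line, and fitted values of genes at 0 in a genotype, Magel2 among them, depend on the prior count.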

How the data were processed

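The authors deposited unnormalized read counts per gene in 4 tables, each of which pairs 1 Pd1cKO-Tie2 with 1 Pd1fl/fl library. The CPM columns, which the authors made by dividing counts by the library total with 0.5 in place of 0, served only to recover totals. Per the labels the tools include TopHat2 2.0.12, Bowtie2 2.2.3 and HTSeq 0.6.0, and the listed build is mm9, but 90.0% of the positions in the tables equal GENCODE M21 on GRCm38. The authors' fold changes and p-values of each pair were not used. Broken lines were skipped (5 in each of 2 files). Tables list a gene where both libraries have a count or 1 has at least 5, and an unlisted gene was set to 0 (0.00495% to 0.0107% of a library's reads).

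Counts were tested with edgeR 4.0.16 (R 4.3.3; filterByExpr by genotype, TMM, quasi-likelihood F test, all 4 libraries, no covariate), and adjusted by Benjamini-Hochberg over all 15909 genes. Libraries varied by a common biological coefficient of variation of 0.610. Each SE is the log2 fold change over the root of its F. The fit was also run on simulated counts in which 200 genes were changed, and no result given here rests on that run. Levels per kb use the union exon length of GENCODE M21. Alternatives were DESeq2 1.42.0, RLE, upper quartile and library size scaling, no filter, at least 10 counts in every library, and each library left out. Named genes were the 10 members and, from the lists of other imprinted genes, IGF system genes and relatives, every called gene and the 5 highest per length. Cluster partners, Irs4 and single markers were named after their values were seen. The members and lists were chosen with earlier results of these data known.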

Additional observations from a re-analysis of the deposited data

How the results depend on the processing

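H19 kept its call under every scaling, filter and tool tried, with a log2 difference of 1.13 to 1.20, and lost it in 2 of the 4 fits that leave out a library, as given above (0.86 to 1.47). The count of called members was 0 to 1 with a library left out, 0 without Pd1fl/fl library 2, and without Pd1cKO-Tie2 library 1 the call was Peg3 in place of H19. The members' median was 0.20 to 0.35 across these fits. The number of genes called among all tested was 640, and 480 with at least 10 counts in every library, 936 with DESeq2 and 689 to 877 with a library left out. Library size alone moved the median of all genes to -0.07. Other imprinted genes called were 0 with at least 10 counts in every library, where neither Magel2 nor Dlk1 is tested, and 0 to 2 with a library left out, 2 of them without Pd1fl/fl library 1 (Magel2 and Dcn). IGF system genes called were 1 with no filter and 1 with DESeq2 (Irs4 in each), and 0 to 2 with a library left out, 1 without Pd1cKO-Tie2 library 1 (Stc2) and 2 without library 2 (Igf1 and Irs4). Relatives called were 0 with at least 10 counts in every library and 0 to 1 with a library left out, the 1 without Pd1fl/fl library 2 being Plag1. Signs that turned with a library left out, in differences that were never called, were those of Igf2 (from -0.14 to 0.43, -0.14 without Pd1fl/fl library 2, -0.12 without Pd1cKO-Tie2 library 1), Igf2r (-0.04 without Pd1fl/fl library 1, up to 0.66), Plagl1 (up to 0.49, -0.25 without Pd1fl/fl library 1, -0.08 without Pd1cKO-Tie2 library 1) and Meg3 (up to 0.80, -0.02 without Pd1fl/fl library 2, -0.68 without Pd1cKO-Tie2 library 2). The cause was not tested. No paired analysis was possible because the labels of the genotypes share only number 1. With 2 libraries per genotype, Dlk1 and Cdkn1c, under 3 CPM, could show only differences well over 2-fold.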

Other observations

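Cell-cycle genes, on which Cdkn1c and its relatives act through cyclin-dependent kinases, were read from a list of 12. None was called in edgeR or reached an unadjusted p under 0.05, and their median log2 difference was -0.11, with a summed level of 704 and 574 CPM in Pd1fl/fl and 601 and 506 CPM in Pd1cKO-Tie2 libraries. Of these, 2 were lower in each Pd1cKO-Tie2 library than in either Pd1fl/fl library, near the 18.1% of all tested genes that were, and were named after their values were seen. Top2a, the topoisomerase of dividing cells, was at 105 and 85.1 CPM in Pd1fl/fl and 81.3 and 45.3 CPM in Pd1cKO-Tie2 libraries (edgeR adjusted p = 0.914). Cdk1, the mitotic kinase, was at 18.4 and 17.9 against 13.0 and 12.1 CPM (edgeR adjusted p = 0.956).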
